A study of Drosophila melanogaster with 6 samples.

Results

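The sarcomere and muscle contraction genes were 34 genes picked by name, and together they had 246 of the 36294 transcripts and 34 of the 17136 genes in the expression matrix. They were listed for their part in muscle, with no threshold on any measured value. The RNA came from brains dissected out of third-instar *Drosophila melanogaster* larvae 6 days after the eggs were laid, all of Canton S, a wild-type strain. Of the 6 pools, 3 were alcohol-grown, from larvae raised on food with 5% alcohol that was topped up daily, and 3 were controls, from larvae raised on food with water in place of the alcohol and no daily supplement. Each pool held about 30 brains, so a value is an average over animals, and p-values measure the spread between pools, since no source states whether the pools came from separate cultures.

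In a muscle fiber, myosin thick filaments pull on actin thin filaments, and the thin filaments are anchored at the Z-discs that border each sarcomere. Calcium released from the sarcoplasmic reticulum binds troponin C, which shifts tropomyosin on the thin filament and exposes actin to myosin, and a calcium pump then refills the store. Titin-like proteins tie the filaments together, integrins fasten the fiber to its attachment sites, and Mef2 switches on muscle genes. Some of the same genes also work outside muscle, in the cytoskeleton, in calcium handling and in adhesion. Of the 34 genes, 26 were therefore taken as muscle-restricted and 8 as used in other tissues too (*Tm1*, *Actn*, *Zasp52*, *SERCA*, *RyR*, *Mef2*, *if* and *mys*), a division made from what is known of the genes.

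Values are FPKM, fragments per kilobase of transcript per 1000000 mapped, which are per length and can be compared between genes. The 5 neuron markers examined (*elav*, *nSyb*, *brp*, *Syt1* and *para*) were all detected and summed to 232.5 to 380.5 FPKM in alcohol pools and 216.4 to 350.1 FPKM in control pools. Products of other larval tissues were present too, and not in equal amounts. Sums over the 6 fat body markers were 1440, 669 and 3947 FPKM in alcohol pools 1, 2 and 3, against 6448, 4689 and 2123 FPKM in control pools 1, 2 and 3. The 6 gut markers summed to 551, 37.9 and 5262 FPKM in alcohol pools, against 961, 2765 and 163 FPKM in control pools. The 6 salivary gland markers, chiefly glue protein genes, summed to 44550, 34760 and 29540 FPKM in alcohol pools, against 55720, 38920 and 14020 FPKM in control pools. Values below keep this order of pools.

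Muscle transcripts were present in every brain pool, and their level split the pools without following treatment. The 26 muscle-restricted genes summed to 645, 173 and 569 FPKM in alcohol pools, against 845, 131 and 132 FPKM in control pools. Alcohol pools 1 and 3 and control pool 1 were high, alcohol pool 2 and control pools 2 and 3 were low, and the groups overlapped. Means were 462 ± 254 FPKM in alcohol pools and 369 ± 412 FPKM in control pools (SD, n = 3 each), and the highest pool was 6.43 times the lowest. The 8 broadly used genes summed to 513, 474 and 436 FPKM in alcohol pools, against 502, 444 and 474 FPKM in control pools, with means of 474 ± 38.6 and 473 ± 29.3 FPKM (SD, n = 3 each) and a highest pool 1.18 times the lowest. Aligned sequence was 2719, 4028 and 3557 megabases in alcohol pools, against 3257, 4244 and 3937 megabases in control pools, so the 3 high pools were also the 3 least deeply sequenced, and the part of depth was not tested. In bulk tissue, fewer muscle cells and less muscle RNA per cell cannot be told apart.

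The same 3 pools were the highest in most muscle-restricted genes, one gene at a time. This pattern was looked for after the values had been seen, and it is a description. Among the 20 muscle-restricted genes whose variance across pools passed the filter of 1, alcohol pools 1 and 3 and control pool 1 were the 3 highest in 17 (85.0%), the exceptions being *sls*, *Strn-Mlck* and *tn*. The count was 0 of 6 for the broadly used genes and 1014 of 8247 (12.3%) for all genes past the filter. Control pool 1 was the highest pool in 15 of the 20, while the lowest was control pool 2 in 10, control pool 3 in 6 and alcohol pool 2 in 4. The highest pool exceeded the lowest by a median of 7.81 times in these 20 genes, against 1.30 times in the 6 broadly used genes and 1.44 times in all 8247. Among the lists of other tissues the same 3 pools were highest in 0 of 6 fat body, 0 of 6 salivary gland, 0 of 6 ring gland, 0 of 4 hemocyte, 0 of 5 neuron and 0 of 3 neuroblast markers, and in 1 of 6 gut, 1 of 5 trachea and cuticle and 1 of 4 glia markers.

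**Figure D1:**
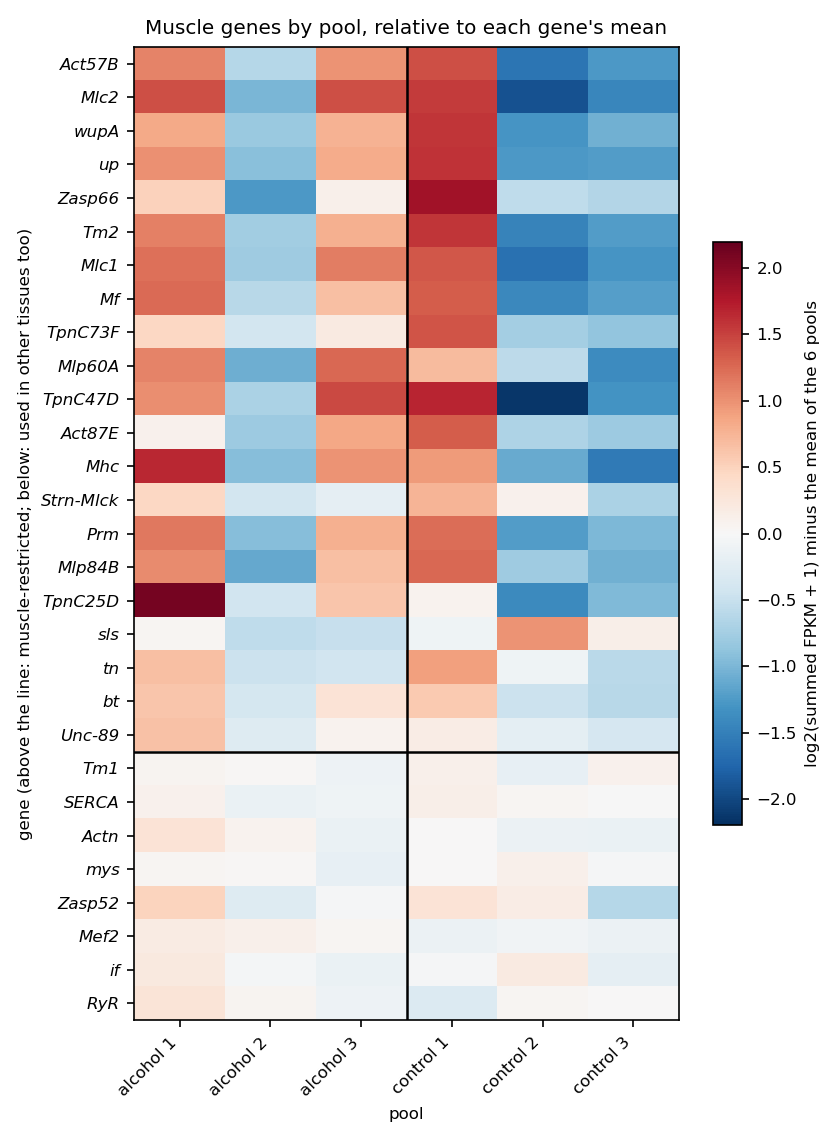
Heat map of the 29 member genes that reached 1 FPKM in any pool, as log2(summed FPKM + 1) minus the mean of the gene's 6 pools, with the alcohol pools in the left columns and the control pools in the right columns. Most of the 21 muscle-restricted genes above the line are red in alcohol pools 1 and 3 and control pool 1 and blue in the other pools, while the 8 broadly used genes below the line are pale throughout.

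Thick filament genes moved together across pools. *Mhc*, the myosin heavy chain that carries the motor domain, lies on chromosome 2L from 16766566 to 16788766 in dm6 and was at 24.4, 3.23 and 15.1 FPKM in alcohol pools, against 14.5, 2.73 and 1.74 FPKM in control pools. *Mlc1*, the alkali light chain of muscle myosin, was at 43.3, 10.1 and 40.5 FPKM in alcohol pools, against 48.2, 5.13 and 6.77 FPKM in control pools. *Mlc2*, the regulatory light chain, was at 74.5, 13.1 and 74.0 FPKM in alcohol pools, against 80.4, 6.42 and 9.37 FPKM in control pools. In each of these genes alcohol pool 2 was above control pools 2 and 3 but below the highest control pool, so the groups overlapped. *Mf* (myofilin, a thick filament component) was at 46.7, 12.2 and 30.9 FPKM in alcohol pools, against 49.5, 6.55 and 7.72 FPKM in control pools, and *Prm* (paramyosin, the core of invertebrate thick filaments) spanned 2.65 to 14.6 FPKM in alcohol pools, against 1.98 to 15.3 FPKM in control pools. The thick filament member *fln* (flightin, a protein of the flight muscle filament) did not exceed 0.24 FPKM in any pool.

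Thin filament genes held the highest levels of the muscle-restricted set. *Act57B*, a muscle actin of the larva, was at 129, 38.7 and 120 FPKM in alcohol pools, against 163, 19.0 and 24.5 FPKM in control pools. The second larval muscle actin measured, *Act87E*, was at 9.90, 4.87 and 17.4 FPKM in alcohol pools, against 24.7, 5.43 and 4.89 FPKM in control pools. Actin genes are near-identical in coding sequence and can exchange reads, so the split among them is uncertain. *Act79B* and *Act88F*, actins of adult muscle, stayed below 0.23 FPKM, and *Act88F* was listed at 0 in 4 pools.

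Tropomyosin *Tm2* was at 41.4, 10.7 and 32.7 FPKM in alcohol pools, against 57.7, 6.11 and 7.36 FPKM in control pools. Troponin T, encoded by *up*, was at 49.0, 12.3 and 42.9 FPKM in alcohol pools, against 74.6, 9.36 and 9.62 FPKM in control pools. Troponin I, encoded by *wupA*, was at 48.9, 14.8 and 46.5 FPKM in alcohol pools, against 82.1, 10.4 and 12.4 FPKM in control pools. Control pool 1 was the highest pool in all of these genes and the groups overlapped in each. By contrast *Tm1*, a tropomyosin gene with muscle and cytoskeletal products, stood near its mean in every pool, at 296, 290 and 263 FPKM in alcohol pools, against 305, 252 and 302 FPKM in control pools.

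The 4 troponin C genes differed among themselves. *TpnC73F* was at 29.5, 15.7 and 24.4 FPKM in alcohol pools, against 57.2, 12.2 and 11.2 FPKM in control pools, and *TpnC47D* was at 20.6, 5.55 and 28.1 FPKM in alcohol pools, against 32.8, 1.40 and 3.23 FPKM in control pools. *TpnC25D* was at 18.3, 2.34 and 5.82 FPKM in alcohol pools, against 3.73, 0.69 and 1.28 FPKM in control pools. Its highest pool was alcohol pool 1, not control pool 1, and its 26.4-fold span from lowest to highest pool was the widest among the 20 genes. *TpnC41C*, a troponin C of adult muscle, stayed between 0.15 and 0.17 FPKM in alcohol pools and between 0.07 and 0.24 FPKM in control pools.

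Most titin-like and kinase genes were low, and *sls* and *Strn-Mlck* departed from the pool pattern. *bt* (projectin) was at 3.06, 1.04 and 2.27 FPKM in alcohol pools, against 2.98, 0.93 and 0.75 FPKM in control pools, and followed the pattern above. *sls*, which encodes the titin-like sallimus and kettin, was at 2.58, 1.34 and 1.44 FPKM in alcohol pools, against 2.23, 5.87 and 2.79 FPKM in control pools, with control pool 2 the highest. In that pool 2.82 FPKM came from *sls*-RV, a form of 49523 bases that was listed at 0 in the other pools. *sls*-RV has no bases of its own, so its level rests on how reads of shared exons were divided. A further 2.58 FPKM came from *sls*-RD, which was at 1.71 FPKM in control pool 3 and listed at 0 in the remaining pools. The long form *sls*-RP was at 2.55, 1.02 and 1.29 FPKM in alcohol pools, against 1.43, 0.47 and 1.07 FPKM in control pools. Its 3 highest pools were alcohol pools 1 and 3 and control pool 1, and this form was picked after its values were seen. *Strn-Mlck* (stretchin and a myosin light chain kinase) was at 12.6, 6.499 and 7.67 FPKM in alcohol pools, against 15.7, 9.59 and 5.09 FPKM in control pools. *Unc-89* (obscurin, a giant protein of the M-line) reached 1 FPKM only in alcohol pool 1, at 1.53 FPKM. An antisense RNA opposite *sls*, asRNA:CR42860, shares 1089 exon bases with it and was picked out after its values were seen. It was at 17.6, 0 and 12.4 FPKM in alcohol pools, against 15.5, 0.04 and 0.40 FPKM in control pools. The 3 high pools were thus the same as for the muscle-restricted genes, although the summed *sls* level did not follow them. The sources used here do not give whether strand was used in quantification. Whether reads of *sls* were counted for the antisense RNA was not tested.

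Of the Z-disc genes, *Zasp66*, a PDZ domain protein of the disc, was at 30.2, 8.11 and 22.7 FPKM in alcohol pools, against 78.0, 14.0 and 13.1 FPKM in control pools. The muscle LIM protein genes *Mlp60A* and *Mlp84B* spanned 5.87 to 33.7 FPKM and 1.91 to 12.0 FPKM in alcohol pools, against 4.51 to 22.4 FPKM and 2.04 to 14.4 FPKM in control pools. *Mlp60A* was highest in alcohol pool 3 and *Mlp84B* in control pool 1. *tn* (thin, a TRIM family protein that keeps the sarcomere stable) spanned 0.94 to 3.24 FPKM in alcohol pools and 0.77 to 3.99 FPKM in control pools, and *Zasp67* did not exceed 0.10 FPKM. The broadly used *Actn* (alpha-actinin, which crosslinks actin at the disc) was at 65.8, 56.4 and 48.1 FPKM in alcohol pools, against 53.7, 48.7 and 48.1 FPKM in control pools. *Zasp52* spanned 16.1 to 28.4 FPKM in alcohol pools and 12.5 to 24.7 FPKM in control pools.

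The remaining broadly used genes varied little. *SERCA*, the pump that returns calcium to the store, was at 58.8, 49.7 and 51.6 FPKM in alcohol pools, against 60.1, 57.02 and 54.6 FPKM in control pools. *RyR*, the calcium release channel, spanned 1.65 to 2.498 FPKM in alcohol pools and 1.33 to 1.94 FPKM in control pools. The integrin genes *if* (an alpha subunit) and *mys* (the beta subunit) averaged 9.31 ± 1.34 and 38.3 ± 3.37 FPKM in alcohol pools, against 9.18 ± 1.44 and 39.997 ± 1.91 FPKM in control pools (SD, n = 3 each). *Mef2*, the transcription factor, was at 10.9, 10.2 and 9.76 FPKM in alcohol pools, against 8.62, 8.89 and 8.58 FPKM in control pools. Every alcohol pool was above every control pool for *Mef2*, with means of 10.3 ± 0.56 and 8.70 ± 0.17 FPKM (SD, n = 3 each). Such a lack of overlap was found in 512 of the 8247 genes past the filter (6.21%), 146 of them higher in alcohol pools. The variance of *Mef2* was under 1 and it did not enter the fit. With no filter its log2 fold change was 0.24.

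**Figure D2:**
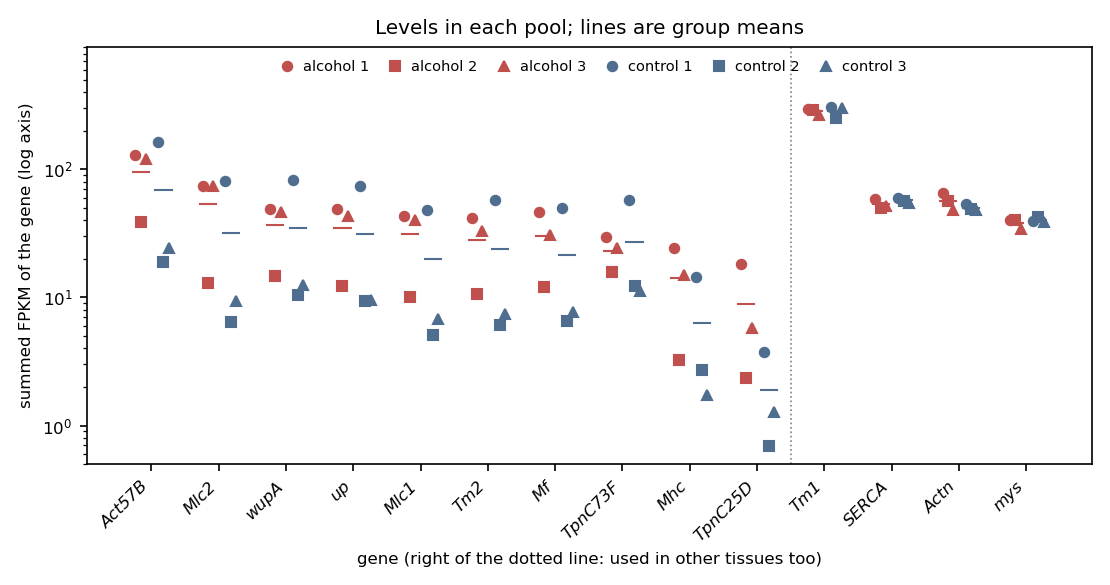
Summed FPKM of 14 member genes on a log axis, with alcohol pools in red to the left and control pools in blue to the right in each gene, a symbol for each pool number and a short line at each group mean. In the 10 muscle-restricted genes left of the dotted line alcohol pool 2 lies below the other alcohol pools and below the highest control pool. In the 4 broadly used genes on the right all pools lie together.

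Whether alcohol changed these levels was asked with limma on log2(FPKM + 1), in a model of treatment and a library-size covariate that Ballgown, the tool used in the study, includes by default. A gene was called at an unadjusted p under 0.05 with a change over 2-fold. Of the 34 genes, 26 passed the variance filter, and those that did not were *fln*, *Act79B*, *Act88F*, *TpnC41C*, *Zasp67*, *Unc-89*, *RyR* and *Mef2*. In this model 7 of the 26 were called, all higher in alcohol pools, while 1.22% of the 8247 genes tested were called in either direction, 1.18% higher and 0.0485% lower. No member had a limma adjusted p under 0.05, and 9 had an unadjusted p under 0.05. The same fit called 4 of the 6 salivary gland markers higher, with a median log2 fold change of 1.12 over the 6, and 1 of 5 trachea and cuticle markers. It called no fat body, gut, hemocyte, ring gland, neuron, glia or neuroblast marker, and the fat body median was -0.75. Without the covariate the called salivary gland markers stood at 0.43 for *Sgs3*, 0.31 for *Sgs5*, 0.18 for *Sgs8* and 4.15 for *ng1*. The part of other tissues in the muscle calls was not tested. The values of the alcohol and control pools did not overlap in 0 of the 26, against 6.21% of all genes.

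The 7 called genes were in the filaments. From the thick filament, the log2 fold change with its standard error was 2.48 ± 0.86 for *Mhc*, 2.42 ± 0.93 for *Mlc1* and 2.25 ± 0.71 for *Mf* (limma adjusted p = 0.997 for each). From the thin filament it was 2.35 ± 0.85 for *Act57B*, 2.23 ± 0.81 for *Tm2*, 2.43 ± 0.78 for *TpnC25D* and 1.29 ± 0.44 for *TpnC73F* (limma adjusted p = 0.997 for each). Among the most abundant muscle-restricted genes, *Mlc2*, *up* and *wupA* had log2 fold changes of 2.76 ± 1.13, 2.04 ± 0.84 and 1.86 ± 0.81 and were not called (limma adjusted p = 0.997 for each). Calls numbered 3 of 5 tested genes in the thick filament and 4 of 9 in the thin filament. The count was 0 of 6 in the Z-disc and 0 of 3 in the titin-like group. It was 0 of 1 in the calcium store and 0 of 2 among integrins. Outside the filaments, *tn* and *bt* also had an unadjusted limma p under 0.05. Their log2 fold changes of 0.74 ± 0.26 and 0.97 ± 0.35 missed only the 2-fold cut (limma adjusted p = 0.997 for each). The Z-disc genes *Mlp60A* and *Mlp84B* stood at 1.78 ± 0.92 and 1.59 ± 0.79 and were not called (limma adjusted p = 0.997 for each). The median log2 fold change was 1.87 over the 20 muscle-restricted genes and 0.09 over the 6 broadly used genes, against about 0 over all genes, and without the covariate it was 0.64 over the same 20 genes.

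These calls rested on the covariate. Without it 0 of the 26 genes were called and 0 had an unadjusted p under 0.05 in limma, while 0.97% of all 8247 genes were called. The log2 fold change without the covariate was 1.15 ± 0.92 for *Mhc*, 1.04 ± 0.97 for *Mlc1*, 0.97 ± 0.93 for *Act57B*, 0.75 ± 0.95 for *Tm2* and 0.16 ± 0.66 for *TpnC73F*, each less than 2 standard errors from 0. *TpnC25D* was at 1.53 ± 0.72 (limma adjusted p = 0.99), and *Zasp66*, *Strn-Mlck*, *tn* and *Tm1* changed sign, to -0.44, -0.09, -0.15 and -0.01 without the covariate. The covariate, a sum of log2(FPKM + 1) over the lower-expressed transcripts of a pool, was 29222, 28800 and 28531 in alcohol pools, against 30450, 29432 and 29005 in control pools. It was highest in control pool 1, which was also the highest pool in most muscle-restricted genes, and treatment explained 40.3% of its variance. An exact two-sided permutation test on log2(summed FPKM + 1) cannot give a p below 0.1 with 3 pools against 3. This permutation test gave p = 0.2 for *Mhc* and *TpnC25D* and p = 0.4 or more for *Mlc1*, *Act57B*, *up* and *wupA*. Calls also rested on single pools. Leaving out alcohol pool 1, control pool 1 or control pool 2 left 0 called member genes, and leaving out control pool 3 left 1 (*TpnC25D*). Leaving out alcohol pool 2 or alcohol pool 3 gave 16 and 11. These fits called 85 to 165 of all 8247 genes.

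**Figure D3:**
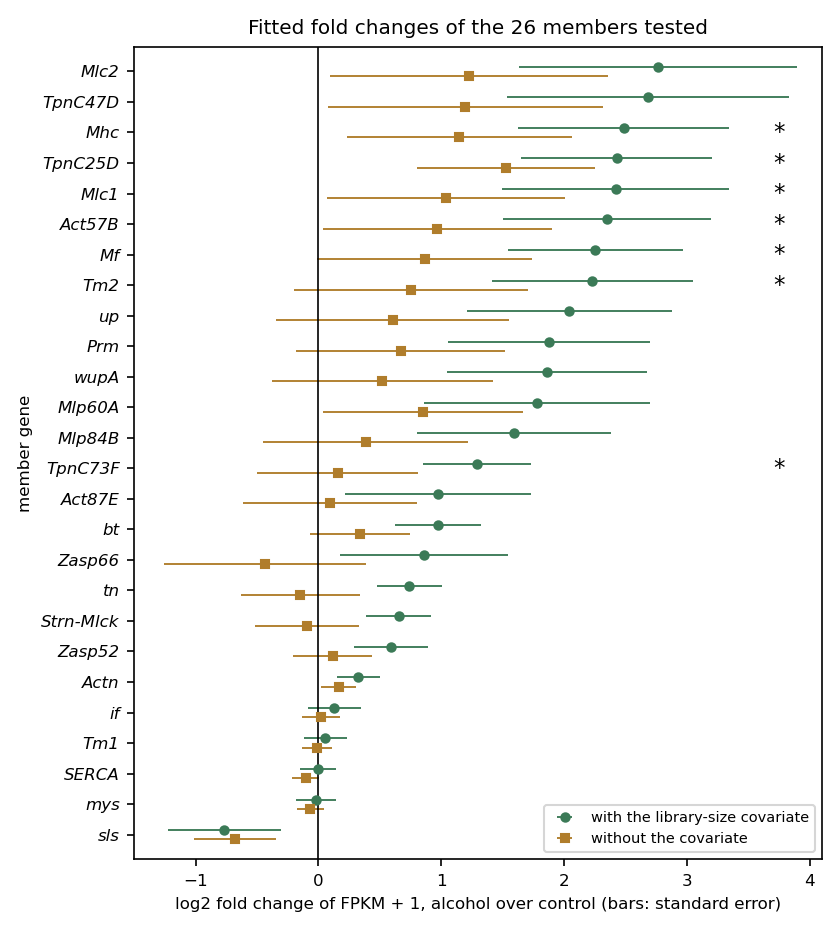
Log2 fold change of FPKM + 1, alcohol over control, with its standard error for the 26 member genes tested, with the library-size covariate (green circles) and without it (brown squares), and an asterisk at the 7 genes called with the covariate. Muscle-restricted genes such as *Mlc2* sit at 2.76 with the covariate and 1.22 without it, while *SERCA* and *mys* stay near 0 in both.

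Transcripts were tested in the same way. Of 72 member transcripts past the filter, 12 were called, 11 higher and 1 lower, while 3.85% of the 14645 transcripts tested were called, 2.03% higher and 1.82% lower, and without the covariate 2 of 72 were called, against 2.38% of all. No member transcript had a limma adjusted p under 0.05. Those called higher were the *Act57B* transcript, *TpnC25D*-RA, *TpnC47D*-RB, *TpnC73F*-RA, *Mf*-RQ, *Tm1*-RG, *Tm2*-RA, *Mlc1*-RD, *Actn*-RC, *Actn*-RD and a *wupA* transcript of 1160 bases, and *sls*-RD was called lower. Their log2 fold changes ran from 1.33 ± 0.37 for *TpnC73F*-RA to 3.60 ± 0.85 for the *wupA* transcript among those higher (limma adjusted p = 0.868 and 0.778). *sls*-RD had a log2 fold change of -1.82 ± 0.46 (limma adjusted p = 0.792) and was listed at 0 in all alcohol pools and in control pool 1, against 2.58 and 1.71 FPKM in control pools 2 and 3.

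Some transcripts of 1 gene differed in a single short exon. The *wupA* transcript called has the same ends, exon number and length as its 2 near neighbours, from which the annotated forms differ by a single exon of 101 bases, and it was at 27.6, 4.20 and 9.51 FPKM in alcohol pools, against 23.4, 0.54 and 0.91 FPKM in control pools. For *Mhc*, 5 transcripts of 6671 bases and 18 exons passed the filter. Of these, 4 were at 4.17 to 5.61 FPKM in alcohol pool 1 and at most 0.67 FPKM in any other pool. Alcohol pool 1 was also the pool in which summed *Mhc* was highest. Whether the reads sufficed to divide *Mhc* among such similar transcripts was not tested.

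Within the broadly used genes, single transcripts followed the muscle pattern while the gene total did not. Alcohol pools 1 and 3 and control pool 1 were the 3 highest in 34 of 51 muscle-restricted transcripts (66.7%) and in 4 of 21 transcripts of broadly used genes (19.0%), against 8.58% of all 14645. The 4 were *Tm1*-RG, *Tm1*-RL, *Actn*-RC and *SERCA*-RI, and they are shown for that reason, having been picked after the values were seen. *Tm1*-RL, which made up 41.0% of *Tm1* FPKM, was at 128, 109 and 111 FPKM in alcohol pools, against 145, 103 and 104 FPKM in control pools. Its pools differed little, and alcohol pool 3 was only slightly above alcohol pool 2. *Tm1*-RG, which encodes 285 residues, made up 10.3, 5.71 and 9.34% of *Tm1* FPKM in alcohol pools, against 13.4, 2.77 and 3.38% in control pools. The more abundant *Tm1*-RQ, which encodes 250 residues, was at 90.6, 115.3 and 86.6 FPKM in alcohol pools, against 82.7, 106.5 and 139 FPKM in control pools, so it was lowest in the pools where *Tm1*-RG was highest.

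*SERCA*-RI encodes 999 residues and *SERCA*-RH 1020, and they differ in an intron near the 5′ end as well as in their 3′ parts. *SERCA*-RI made up 12.0, 6.34 and 9.90% of *SERCA* FPKM in alcohol pools, against 9.99, 5.42 and 4.95% in control pools, while *SERCA*-RH made up 85.1 to 91.3% in alcohol pools and 86.5 to 89.9% in control pools. Neither share separated the groups, with p = 0.3 for *SERCA*-RI and p = 0.8 for *SERCA*-RH in an exact two-sided permutation test.

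Transcripts of *Actn* differed in how they followed the pools. *Actn*-RC, which encodes 917 residues against 895 in *Actn*-RA, *Actn*-RB and *Actn*-RD and has 934 bases in no other transcript of the gene, was at 14.3, 9.44 and 12.9 FPKM in alcohol pools, against 11.6, 5.97 and 3.88 FPKM in control pools. Its share of *Actn* FPKM was 21.7, 16.7 and 26.8% in alcohol pools, against 21.6, 12.3 and 8.07% in control pools, and the groups overlapped (exact permutation p = 0.2). *Actn*-RD, which starts downstream of *Actn*-RA and *Actn*-RB, was at 4.68, 1.39 and 1.82 FPKM in alcohol pools, against 0.71, 0.89 and 0.35 FPKM in control pools. Every alcohol pool was above every control pool, and the share of the gene was 7.11, 2.46 and 3.78% in alcohol pools, against 1.32, 1.82 and 0.73% in control pools (exact permutation p = 0.1, the smallest possible). Its log2 fold change was 1.37 ± 0.47 with the covariate and 1.04 ± 0.37 without it (limma adjusted p = 0.999 and 0.997), and of the 12 called transcripts it was the 1 also called without the covariate. *Actn*-RD has no bases of its own, and the gene shares exon bases with *usp* on the same strand and with *east* and *CG4313* on the other.

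**Figure D4:**
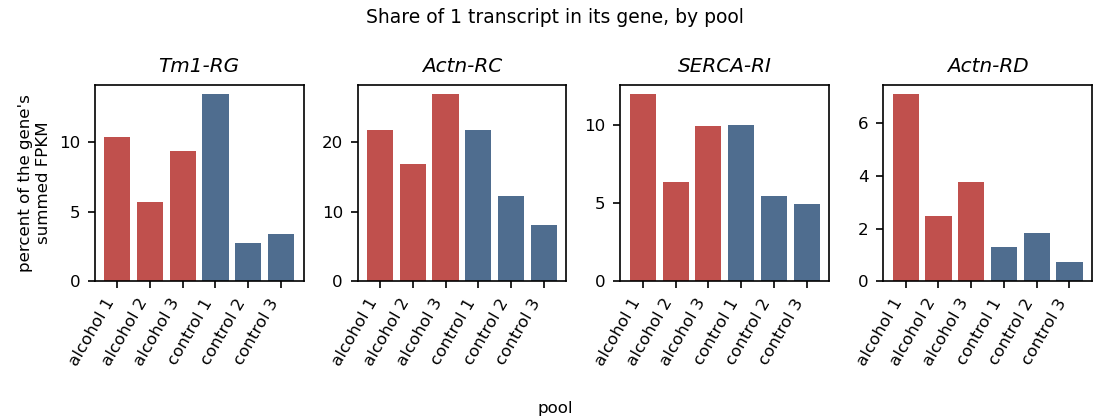
Percent of the summed FPKM of the gene in 1 transcript, by pool, with alcohol pools as red bars on the left and control pools as blue bars on the right of each panel. *Tm1*-RG, *Actn*-RC and *SERCA*-RI are high in control pool 1 as well as in alcohol pools 1 and 3, and *Actn*-RD is at 2.46% or more in each alcohol pool and at 1.82% or less in each control pool.

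The values of 3 of the 72 member transcripts did not overlap between the groups (4.17%), against 7.72% of all transcripts. Besides *Actn*-RD these were an *Mhc* transcript listed at 0 in the control pools and *mys*-RD. *mys*-RD was at 2.49, 0.17 and 0.14 FPKM in alcohol pools, against 4.16, 16.9 and 3.96 FPKM in control pools, and was the other transcript called without the covariate, with a log2 fold change of -2.21 ± 0.70 (limma adjusted p = 0.997). With the covariate it was -2.05 ± 0.98 and was not called.

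Differential transcript usage, which asks whether transcripts of a gene changed by different amounts, was tested for 21 member genes with limma's diffSplice. None passed an adjusted p of 0.05, against 1.05% of the 3630 genes tested, and *Actn* and *SERCA* had an unadjusted p under 0.05, which 11.5% of all genes had. For *Actn* and *SERCA* the limma adjusted p was 0.359 and 0.428. The *Mlc1* transcript *Mlc1*-RD, 485 bases longer than *Mlc1*-RB and with the same coding length, made up 87.9, 80.8 and 91.9% of *Mlc1* in alcohol pools, against 84.8, 59.0 and 47.5% in control pools (limma adjusted p for usage = 0.464).

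Since muscle-restricted RNA as a whole varied between pools, each gene was also expressed as a percent of the summed FPKM of the 26 muscle-restricted genes. This scale was added after the data had been seen. On it the values of 4 of the 20 genes past the filter, *Zasp66*, *TpnC25D*, *Act57B* and *Mlc1*, did not overlap between the groups. The share over all 8247 genes on the same scale was 2.46%. That share is no yardstick for these 4, because most of the 8247 do not share the pool pattern of muscle. Dividing such genes by a sum that varied 6.43 times between pools of both groups tends to make their values overlap. *Zasp66*, on chromosome 3L from 8624371 to 8638813 in dm6, made up 4.68, 4.69 and 3.99% of muscle-restricted FPKM in alcohol pools, against 9.23, 10.6 and 9.92% in control pools. Within each group the pools agreed closely although muscle-restricted RNA itself differed several-fold, with means of 4.45 ± 0.40% in alcohol pools and 9.93 ± 0.70% in control pools (SD, n = 3 each, exact permutation p = 0.1, the smallest possible). The ratio of alcohol over control was 0.448, and it was 0.328 with the 6 thick filament genes as the denominator and 0.438 with *Act57B* and *Zasp66* left out of it, with no overlap in either.

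*TpnC25D* made up 2.84, 1.35 and 1.02% of muscle-restricted FPKM in alcohol pools, against 0.44, 0.53 and 0.97% in control pools, a ratio of 2.69, and its groups overlapped when the thick filament genes were the denominator. *Mlc1* made up 6.71, 5.84 and 7.13% in alcohol pools, against 5.70, 3.91 and 5.12% in control pools. *Act57B* made up 20.0, 22.4 and 21.1% in alcohol pools, against 19.3, 14.5 and 18.5% in control pools. With *Act57B* and the gene itself left out of the denominator, the ratio of alcohol over control was 1.43 for *Mlc1* and 1.27 for *Act57B*, with no overlap. With the thick filament genes, which include *Mlc1*, as the denominator it was 0.995 for *Mlc1* and 0.913 for *Act57B*, and the groups overlapped. A change relative to other muscle genes is therefore not shown for either. *Mhc*, *Mlc2*, *Mf*, *Tm2*, *up* and *wupA* overlapped between the groups on this scale.

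**Figure D5:**
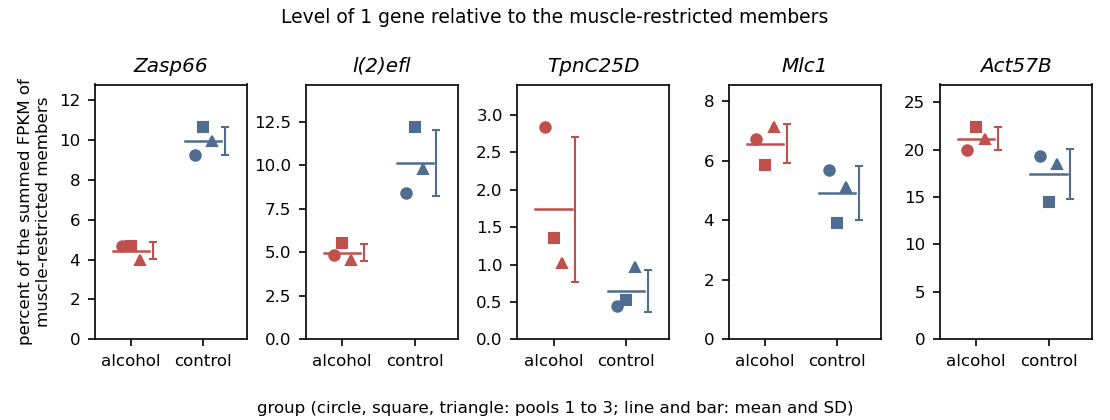
Level of 5 genes as a percent of the summed FPKM of the muscle-restricted genes, with the alcohol pools on the left and the control pools on the right of each panel, a symbol for each pool number, a line at the mean and a bar of 1 SD. *Zasp66* and *l(2)efl* lie lower in all alcohol pools than in all control pools, *TpnC25D*, *Mlc1* and *Act57B* higher.

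Other sarcomere genes were described from a list of 14, of which 13 were found and 12 tested. Their count of calls was 0 in either direction, and the median log2 fold change was about 0, as over all genes. Most are also used outside muscle, such as *cpa* and *cpb* (actin capping), *tmod* (tropomodulin) and *Msp300* (a giant nuclear anchoring protein). The groups did not overlap in 2 of the 12 (16.7%), *cpa* and *unc-45*, both lower in alcohol pools, against 6.21% of all genes. Their log2 fold changes were small, at -0.11 ± 0.14 and -0.18 ± 0.17 (limma adjusted p = 0.997 for each). Of the 12, 2 had alcohol pools 1 and 3 and control pool 1 as their 3 highest. These were *Mp20*, a calponin-like muscle protein, and *l(2)efl*, a small heat shock protein.

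*Mp20* was at 50.9, 15.7 and 44.2 FPKM in alcohol pools, against 75.3, 16.7 and 14.2 FPKM in control pools. *l(2)efl* was at 31.4, 9.52 and 25.98 FPKM in alcohol pools, against 71.2, 16.0 and 12.9 FPKM in control pools, values close to those of *Zasp66* in each pool. Relative to muscle-restricted FPKM, *l(2)efl* stood at 4.86, 5.51 and 4.57% in alcohol pools, against 8.42, 12.2 and 9.79% in control pools (ratio 0.491, exact permutation p = 0.1). The groups did not overlap under either of the other denominators. *Mp20* stood at 7.89, 9.07 and 7.78% in alcohol pools, against 8.91, 12.8 and 10.7% in control pools, and the groups overlapped.

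Genes that muscle cells use outside the sarcomere were described from further lists. Of the 6 genes for the glutamate receptor of larval muscle and its partner, only *Neto*, which neurons can also express, reached 1 FPKM. The receptor subunits *GluRIIA*, *GluRIIB*, *GluRIIC*, *GluRIID* and *GluRIIE* stayed at 0.05 to 0.84 FPKM in alcohol pools and at 0.06 to 0.82 FPKM in control pools. At these low levels *GluRIIC* and *GluRIIE* had alcohol pools 1 and 3 and control pool 1 as their 3 highest. *GluRIIA*, *GluRIIB* and *GluRIID* did not. The 8 myoblast genes summed to 27.0 to 38.8 FPKM in alcohol pools and 32.4 to 39.1 FPKM in control pools. Most of this came from *sns*, *mbc* and *htl*, which also act in other tissues, while the myogenic factor *nau* did not exceed 0.10 FPKM and *lmd* and *sing*, genes of fusing myoblasts, did not exceed 0.15 FPKM. The 8 muscle attachment genes, among them *rhea* (talin) and *Ilk* (integrin-linked kinase), summed to 215 to 231 FPKM in alcohol pools and 219 to 238.5 FPKM in control pools. Single attachment genes varied more than the sum, up to 5.49-fold between pools for *Tig* (tiggrin, an integrin ligand), and in 2 of the 8, *Ilk* and *parvin*, alcohol pools 1 and 3 and control pool 1 were the 3 highest. The cytoplasmic genes *Act5C*, *Act42A*, *zip*, *sqh* and *Mlc-c*, the non-muscle counterparts of the filament genes, summed to 3392 to 3832 FPKM in alcohol pools and 3719 to 4021 FPKM in control pools, and limma called 0 of 5 in either direction.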

How the data were processed

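The authors checked reads with FastQC 0.11.9, trimmed them with Trimmomatic 0.39, aligned them to dm6 with HISAT2 2.2.0, sorted them with SAMtools and quantified transcripts with StringTie 2.1.4, as the methods and the submitters' processing notes state. The deposited matrix holds FPKM by transcript and pool, unscaled between pools. It also gives the deposited coverage, the mean read depth per base, whose ratio to FPKM gave the aligned megabases. Read counts were not used here, so no counting error is given, and the spread between pools sets the precision. The libraries were stranded, and whether strand was used in quantification is not given in the sources used here. A further table of the authors' own comparison (fold change as a ratio, p-value and q-value) was not used.

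FPKM were summed by gene. Genes and transcripts with a variance above 1 across the 6 pools were fitted on log2(FPKM + 1) with limma 3.58.1 in R 4.3.3, with treatment and Ballgown's covariate (the sum of log2(FPKM + 1) over transcripts below the 75th percentile of the pool), and p-values were adjusted by Benjamini-Hochberg over all features. Calls needed an unadjusted p under 0.05 and a change of over 2-fold. The added 1 makes fold changes of low genes too small. Transcript usage was tested with limma's diffSplice, and single values with an exact two-sided permutation test over 20 assignments. Scripts were tested on simulated data. Tables and plots were made with Python 3.11.15, numpy 2.4.6, pandas 2.3.3 and matplotlib 3.10.9. Transcript names came from matching positions to the FlyBase annotation of dm6, and *Unc-89* is listed there as *Obsc*.

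The members and lists were chosen with earlier results of these data known. Fold changes are printed for members called, for called transcripts, for members with a usage call and for the 4 most abundant muscle-restricted members, and any other was chosen after its values were seen. Alternatives were no covariate, a replicate block with and without the covariate, a pseudocount of 0.1, no filter, a mean of at least 1 FPKM, rescaling to a total of 1000000, quantile normalization, the ordinary F-test, leaving out each pool, and coverage in place of FPKM for transcript shares. Other denominators for relative levels were added after seeing the data.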

Additional observations from a re-analysis of the deposited data

How the results depend on the processing

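The count of member genes called, 7 with the covariate, was 0 with no covariate, 0 with the ordinary F-test, 1 with quantile normalization, 1 with the replicate block and no covariate, 3 with no filter on low values, and 0 to 16 when each pool was left out in turn. The count of member transcripts called, 12, was 2 with no covariate, 3 with quantile normalization, 3 with the replicate block and no covariate, 4 with the ordinary F-test and 5 to 25 when each pool was left out. With the replicate block and the covariate together the counts were 10 genes and 13 transcripts. The cause of each lost call was not tested. Same-numbered pools had correlations of deviations of -0.116, -0.468 and -0.573, against -0.182 to 0.635 for pools of different numbers. Same-numbered pools therefore did not deviate together. These correlations cannot show whether such pools were handled together, and no source states it. The median log2 fold change of member genes, 1.44, was 0.36 with no covariate, and that of member transcripts, 1.13, was 0.30 with no covariate, 0.35 with quantile normalization and 0.10 with no filter, where 189 transcripts were tested. No called gene or transcript changed direction in any fit, but 8 of the 26 genes tested, none of them called, did so in at least 1 fit, 4 of them without the covariate, as did *l(2)efl* (-0.30 without it, against 0.89 with it). Relative to the thick filament genes, *Act57B* stood at -0.13 and *Mlc1* at -0.0069 on the log2 scale, so neither stayed higher in alcohol pools. Coverage in place of FPKM cannot change a transcript's share, because their ratio is constant within a pool. Read depth limits the low members, whose counting error is unknown.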
